A study of Mus musculus with 15 samples.

Results

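The subject is the 8 subunits of the chaperonin TRiC (also called CCT), encoded by *Tcp1*, *Cct2*, *Cct3*, *Cct4*, *Cct5*, *Cct6a*, *Cct7* and *Cct8*. They were chosen by name alone among the 21727 transcripts of a ribosome profiling table, mapped to GENCODE M21, at a time when earlier results of these data were known. Of the 8, 7 had counts and passed the filter on low counts, as part of 10085 transcripts tested, and *Cct6a* had no counted region. Ribosome profiling sequences the short mRNA pieces that ribosomes protect from RNase, called footprints or ribosome-protected fragments (RPFs), so that the number of footprints on a coding sequence (CDS) follows how many ribosomes were translating it. The 15 libraries came from E14Tg2a.4 mouse embryonic stem cells (mESCs), an established line, in 5 conditions of 3 clones each. Total RPFs were taken from all ribosomes of WT clones, of clones with a 3xFLAG tag on both alleles of *Rps27* (Rps27-FLAG) and of clones with the same tag on both alleles of *Rps27l* (Rps27l-FLAG). IP RPFs were taken from the ribosomes that an anti-FLAG antibody pulled down from the 6 tagged clones. *Rps27* and *Rps27l* are paralogs that encode the ribosomal proteins eS27 and eS27L. The tag sits at the C terminus behind a linker at the endogenous locus, each tagged clone grew from a single edited cell, and all cells received cycloheximide before lysis. No IP library of untagged cells was analysed here, so that RNA held by the beads alone was not measured. IP and total RPFs of a replicate number within a line come from the same clone, and barcoded RPFs of the same replicate number were pooled during library preparation.

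TRiC folds newly made proteins in the cytosol, actin and tubulin above all. It is a pair of stacked rings, and each ring holds 1 copy of each of 8 related but different subunits, so that a complete complex takes the same number of every subunit. Each subunit has a domain that binds ATP, an intermediate domain and an apical domain that holds the substrate. Prefoldin hands unfolded actin and tubulin to TRiC, phosducin-like proteins act as cofactors, and the tubulin cofactors receive tubulin after it. The study asked whether ribosomes with Rps27 and ribosomes with Rps27l translate different mRNAs. For the TRiC subunits this becomes the question whether their footprints per length were equal and whether this balance differed between lines or between IP and total RPFs.

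The subunits are related in sequence, which matters because the authors kept only reads that aligned to 1 place. To show how far they differ where they are alike, a conserved stretch of the ATP-binding domain is printed for each subunit, with 27 bases of coding strand from 5′ to 3′ and in capitals the 4 codons for glycine, aspartate, glycine and threonine (GGN, then GAT or GAC, then GGN, then ACN, searched in frame on the coding strand).
Tcp1: gaagttGGAGATGGAACTacctcagtg
Cct2: gaagttGGTGATGGCACTacctctgtt
Cct3: gaggttGGAGATGGGACCacatcagta
Cct4: gaagcaGGAGATGGCACCacgtcggtt
Cct5: gaaattGGAGATGGGACCacaggagtg
Cct6a: ataactGGCGATGGCACTacatccaat
Cct7: gaggttGGTGATGGCACCacctcagtg
Cct8: gaggttGGTGATGGCACAaacttcgtt
The sequences come from GENCODE M21 on GRCm38 and, for *Cct6a*, from the RefSeq annotation of the same build. Each subunit holds the 4 codons once in the sequence searched, at codons 87 to 103, and 1.02% of 19243 coding sequences in the table hold them. For *Cct6a* only the 1212 CDS bases before a stretch missing from the assembly were searched. Over the 28 pairs of subunits the windows differ by 4 to 12 of 27 bases, with a median of 7.0, and the capitals differ by 0 to 3 of 12 bases. Across the whole counted CDS of the 7 measured subunits, every stretch of 28 bases, about the length of a footprint, occurs in no other transcript of the table. The 7 subunits therefore share no exact stretch of this length, and near matches between them were not counted.

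The 7 measured subunits lie on 7 chromosomes and have coding sequences of nearly one length. On GRCm38, *Tcp1* is at chr17:12916382-12925067 on the plus strand (12 exons, CDS of 1668 bases), *Cct2* at chr10:117051001-117063814 on the minus strand (16 exons, 1605 bases), *Cct3* at chr3:88297116-88321767 on the plus strand (14 exons, 1635 bases) and *Cct4* at chr11:22990519-23003780 on the plus strand (14 exons, 1617 bases). *Cct5* is at chr15:31590800-31601804 on the minus strand (11 exons, 1623 bases), *Cct7* at chr6:85451514-85468475 on the plus strand (12 exons, 1632 bases) and *Cct8* at chr16:87483326-87495873 on the minus strand (15 exons, 1644 bases). The GC content of the CDS runs from 44.5% in *Tcp1* to 51.5% in *Cct7*.

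*Cct6a* encodes the zeta subunit and had 0 counts in all 15 libraries. Its entry in the table is a processed transcript of 411 bases at chr5:129844970-129845982 with 3 exons and no CDS, so that no codon of it could be counted. None of the 7 GENCODE M21 transcripts of *Cct6a* has a CDS. RefSeq places 13 CDS segments with 1467 bases on GRCm38 between positions 129787439 and 129845820 of chromosome 5, with a stretch missing from the assembly between 129794498 and 129844964. The 0 is thus a gap in the annotation and no measurement of translation. *Cct6b*, a paralog of *Cct6a* known from testis, had 69 to 128 counts per library and a density of 7.51 to 10.3 normalized CPM per kb in the total RPFs. No 28-base stretch of the *Cct6a* CDS occurs in the counted CDS of *Cct6b*. Of 1413 stretches, 7 lie within 1 mismatch of it, 30 within 2 and 74 within 3. Whether footprints of *Cct6a* were counted for *Cct6b* was not tested.

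Library totals ran from 3972152 to 8064166 counts, and each measured subunit had between 4463 and 9964 counts in each library. The 95% Poisson half-width of such a count is 2.0% to 2.9%, which covers counting error only. All 10 markers of embryonic stem cells, *Pou5f1*, *Nanog* and *Zfp42* among them, passed the filter, with a summed level of 3870 to 4670 normalized CPM (CPM, the count scaled to a library of fixed size after TMM normalization). This sum was 4510 to 4670 in the 6 IP libraries and 3870 to 4260 in the 9 total libraries. The summed level was 11.3 to 40.0 for 5 fibroblast markers, 1.61 to 14.6 for 4 endoderm markers and 41.4 to 90.6 for 4 trophectoderm markers, the last almost all from *Tfap2c*. The part of these levels in the results on TRiC was not tested.

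To compare subunits with each other, the footprint density was taken as normalized CPM per kb of counted CDS. The 7 densities were close to each other. Averaged over the 9 total libraries, they ran from 704 ± 26.1 (SD, n = 9) in *Cct2*, the beta subunit, to 812 ± 33.7 in *Cct4*, the delta subunit. Between them stood *Cct8*, the theta subunit (778 ± 32.1), *Cct5*, epsilon (774 ± 30.5), *Cct3*, gamma (758 ± 46.9), *Tcp1*, alpha (747 ± 29.1), and *Cct7*, eta (728 ± 12.9). The highest density was 1.15 times the lowest, and within single total libraries this ratio was 1.12 to 1.20. Among 10084 transcripts tested with a counted CDS, with a median density of 25.6, the 7 subunits held ranks 131 to 172. The footprint density mixes the number of mRNAs with the ribosomes on each, and these cannot be told apart without RNA levels.

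**Figure D1:**
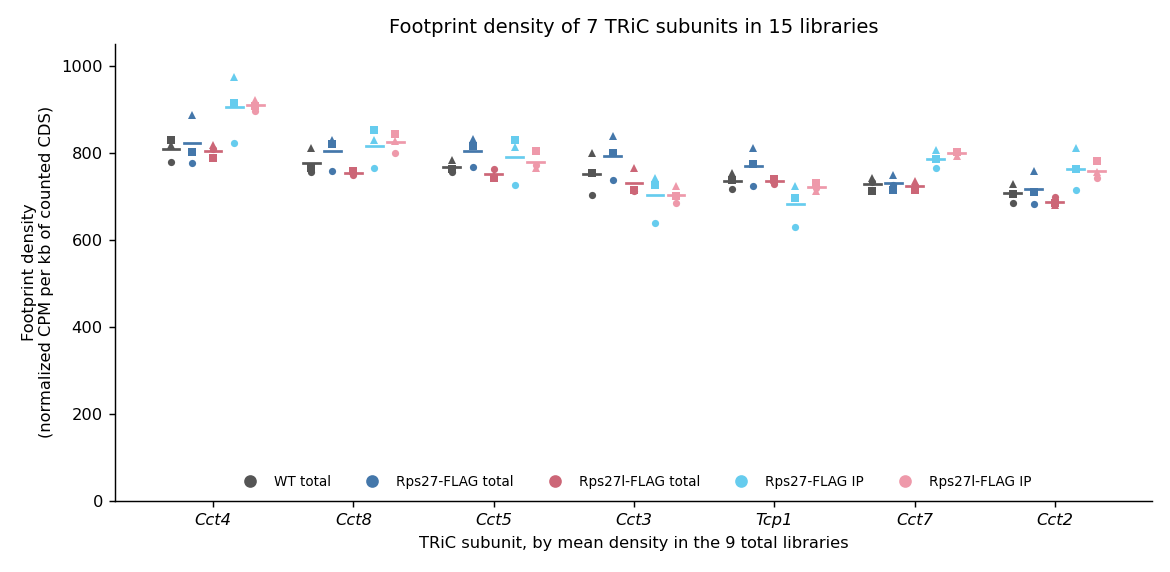
Footprint density (y axis, TMM-normalized CPM per kb of counted CDS, from 0) of each measured subunit (x axis, ordered by the mean of the 9 total libraries) in every library. Colors mark the 5 conditions, circles, squares and triangles mark replicates 1, 2 and 3, and a line marks the mean of 3 clones; *Cct4* is highest with 812 and *Cct2* lowest with 704 over the 9 total libraries, and in the IP libraries *Tcp1* and *Cct3* fall to the lower end.

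Small as they were, the differences between subunits recurred from clone to clone. *Cct4* had densities of 779, 830 and 818 in the WT clones 1 to 3, 776, 801 and 887 in the Rps27-FLAG clones, and 809, 789 and 817 in the Rps27l-FLAG clones. *Cct2* had 685, 705 and 729 in WT, 683, 709 and 759 in Rps27-FLAG, and 698, 684 and 681 in Rps27l-FLAG. *Cct4* was above *Cct2* in 9 of 9 clones, by a factor of 1.15 (mean log2 ratio 0.21, SD 0.032, exact two-sided sign-flip permutation p = 0.00391, the smallest that 9 clones allow, adjusted p = 0.00684 over 21 pairs). Of the 21 pairs of subunits, 16 had an adjusted p under 0.05, the highest of these 0.0308. Of the 6 pairs of neighbours in the order, 2 did: *Cct4* over *Cct8* (factor 1.04, 8 of 9 clones, exact permutation adjusted p = 0.0219) and *Cct7* over *Cct2* (factor 1.03, 8 of 9 clones, exact permutation adjusted p = 0.0219). *Cct8* and *Cct5* did not separate, with a mean log2 ratio of 0.0064 (SD 0.023, higher in 5 of 9 clones, exact permutation adjusted p = 0.441). *Cct5* and *Cct3* (exact permutation adjusted p = 0.112), *Cct3* and *Tcp1* (0.263) and *Tcp1* and *Cct7* (0.0869) did not separate beyond their spread either. The order in the 3 WT libraries alone was the same at all 7 places, and 3 clones cannot reach a p below 0.25 in this test. The test asks only whether a difference recurs over clones. A difference in how well the footprints of each sequence are recovered would recur as well, and its part was not tested.

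Beside 3 other complexes with subunits in fixed proportion, the 7 measured TRiC subunits lay closest together, as a description with no test. *Cct6a* is missing from the TRiC spread, while all subunits of the other 3 complexes were measured. The coefficient of variation between subunit densities was 4.69% for the 7 TRiC subunits, 13.7% for the 6 subunits of the MCM helicase, which unwinds DNA at replication forks, 21.2% for the 6 subunits of prefoldin and 27.4% for the 14 subunits of the 20S proteasome core. The highest density was 1.48 times the lowest in MCM (*Mcm7* 482, *Mcm2* 326) and 1.63 times in prefoldin (*Vbp1* 338, *Pfdn4* 208). In single total libraries this ratio was 1.43 to 1.56 for MCM and 1.46 to 1.86 for prefoldin, with no overlap with the 1.12 to 1.20 of TRiC. In the 20S core the ratio was 6.07, between *Psma6* (645) and *Psmb3* (106). Only 51.9% of the 28-base stretches of *Psmb3* are unique in the table, and the 27.4% includes this subunit. The next lowest subunit is *Psmb7* with 386, of whose stretches 91.4% are unique. The coding sequences of TRiC span 1605 to 1668 bases, against 2157 to 2712 in MCM, 366 to 588 in prefoldin and 603 to 831 in the 20S core, and the part of length in these spreads was not tested.

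**Figure D2:**
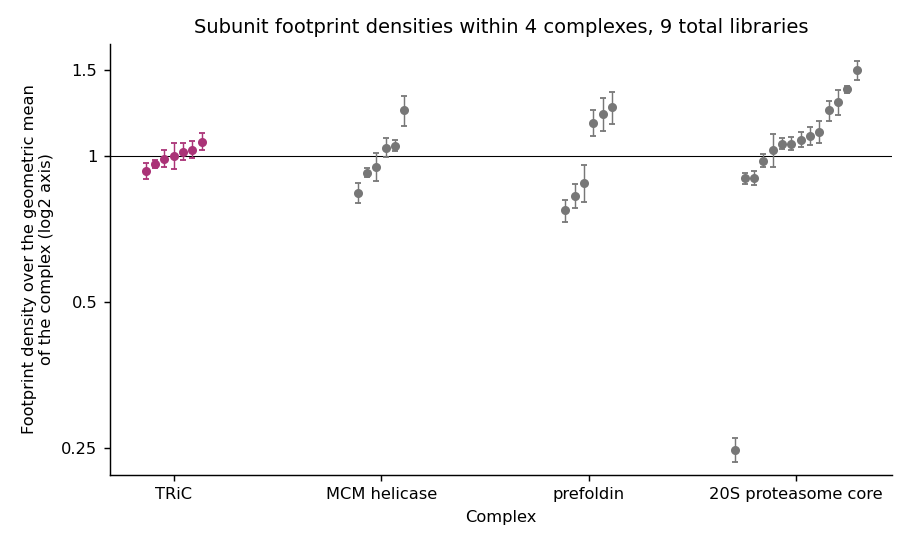
Mean footprint density of each subunit over the 9 total libraries, divided by the geometric mean of its complex (y axis, log2 scale), for 4 complexes (x axis), with points for subunits and bars for the SD over 9 libraries. The 7 TRiC subunits lie between 0.930 and 1.07, and the lowest point, at 0.248, is *Psmb3*.

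The median spread between clones lay below that of transcripts above 500 normalized CPM in WT and Rps27l-FLAG and near it in Rps27-FLAG. In the WT total RPFs the coefficient of variation of the 7 subunits over 3 clones ran from 1.92% to 6.51% with a median of 3.10%. The medians were 5.42% in Rps27-FLAG total, 1.33% in Rps27l-FLAG total, 7.04% in Rps27-FLAG IP and 2.60% in Rps27l-FLAG IP RPFs. Over all tested transcripts the medians were 9.54% to 10.6%. The 354 transcripts with a mean above 500 normalized CPM in the total RPFs include the 7 subunits, whose own means ran from 1090 to 1260. This set has no upper limit and was not matched to the subunits in abundance. Its median coefficient of variation was 4.69% in WT total RPFs. It was 5.95% in Rps27-FLAG total, 4.26% in Rps27l-FLAG total, 7.08% in Rps27-FLAG IP and 5.03% in Rps27l-FLAG IP RPFs. Summed over the 7 subunits, the level was 8291 ± 243 normalized CPM in WT total, 8548 ± 417 in Rps27-FLAG total and 8156 ± 77.4 in Rps27l-FLAG total RPFs (SD, n = 3). The Rps27-FLAG clones stood apart most, with 8133, 8543 and 8967 in total and 7948, 8749 and 8955 in IP RPFs of replicates 1, 2 and 3. In both fractions the first of these clones was lowest and the third highest.

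Total RPFs were compared between the 3 lines to ask whether the tags changed TRiC subunit translation. No subunit passed the test. In Rps27-FLAG against WT the log2 fold changes were 0.0030 (*Cct7*) to 0.074 (*Cct3*) with a median of 0.049, and in Rps27l-FLAG against WT they were -0.042 (*Cct3*) to -0.0018 (*Tcp1*) with a median of -0.030. In Rps27l-FLAG against Rps27-FLAG they were -0.12 (*Cct3*, SE 0.065) to -0.011 (*Cct7*, SE 0.043) with a median of -0.065. With edgeR's quasi-likelihood test and Benjamini-Hochberg adjustment over all transcripts, 0 of 7 subunits passed an adjusted p of 0.05 in each of the 3 comparisons, and the lowest adjusted p was 0.803 (*Cct3*, *Cct5* and *Cct8* between the tagged lines). At an unadjusted p under 0.05 there were also 0 of 7, and voom with limma and DESeq2 gave 0 of 7. The background was the same, with 0% of 10085 transcripts called in each comparison (294, 574 and 580 at an unadjusted p under 0.05, and 0 by voom with limma and by DESeq2). With the replicate number, which marks the preparation pool, as a replicate block, edgeR called 0 of 7 subunits again in each comparison (lowest adjusted p 0.232), while 1, 144 and 137 of all transcripts passed. At an unadjusted p under 0.05 this fit gave 0, 0 and 2 of 7 subunits (*Cct3* and *Cct5* between the tagged lines), against 630, 1445 and 1540 of all transcripts. All 7 values were positive in the first comparison and negative in the others. The comparisons share the WT or the Rps27-FLAG libraries, and the 347 other transcripts above 500 normalized CPM had medians of 0.013, -0.037 and -0.053 in the same order.

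**Figure D3:**
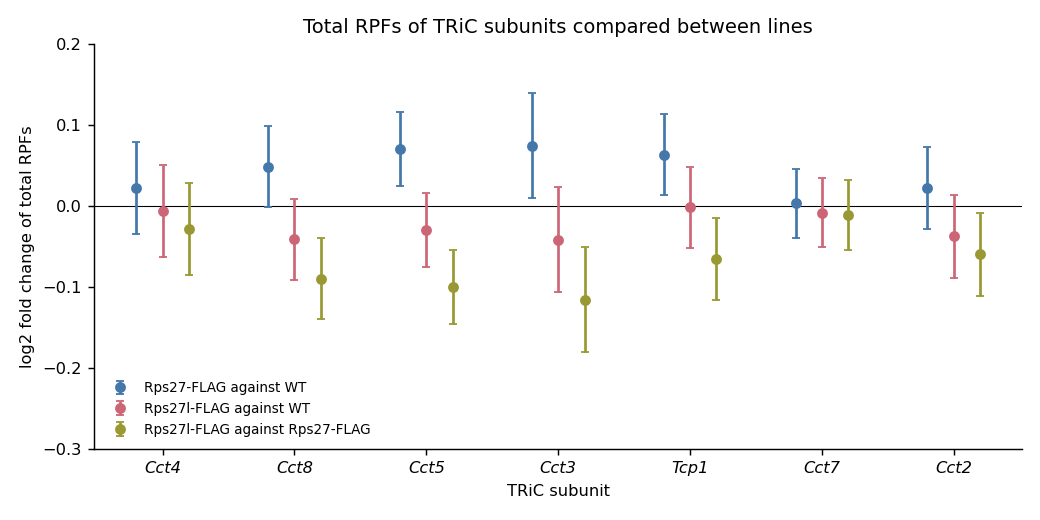
Log2 fold change of total RPFs (y axis) of each measured subunit (x axis) in 3 comparisons of lines, as points with bars for the standard error of the fit in 3 clones per line. All points lie between -0.12 and 0.074, and the comparison of the 2 tagged lines lies below 0 for every subunit.

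IP RPFs were compared with total RPFs of the same line to ask whether tagged ribosomes sat on TRiC mRNAs in the proportion of all ribosomes. The IP level lay within 12.9% of the total level for each subunit and line, and the subunits differed from each other. In Rps27-FLAG the IP level was 11.3% below the total level for *Tcp1* and for *Cct3*, and above it by 6.30% for *Cct2*, 7.55% for *Cct7* and 10.0% for *Cct4*. In Rps27l-FLAG it was above the total level by 10.3% for *Cct2*, 10.2% for *Cct7*, 12.9% for *Cct4* and 9.20% for *Cct8*. With the design of the study, which leaves the clone out, 0 of 7 subunits passed in either line with edgeR's quasi-likelihood test, against a background of 5.67% of all transcripts in Rps27-FLAG and 3.10% in Rps27l-FLAG. At an unadjusted p under 0.05 these were 1 of 7 and 4 of 7, against 2230 and 1752 of 10085 transcripts. Voom with limma gave 0 and 0 subunits, against 513 and 306 of all transcripts. DESeq2 gave 0 and 1 subunits (*Cct4*), against 584 and 460 of all transcripts.

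Each clone gave both an IP and a total library, and fitting the clone as a replicate block, which pairs them, changed these calls. In Rps27-FLAG 5 of 7 subunits then passed in edgeR's quasi-likelihood test, with *Tcp1* (log2 fold change -0.17, SE 0.030, adjusted p = 9.11e-08) and *Cct3* (-0.17, SE 0.030, adjusted p = 7.92e-08) lower and *Cct4* (0.14, SE 0.030, adjusted p = 3.39e-05), *Cct7* (0.10, SE 0.030, adjusted p = 0.00198) and *Cct2* (0.088, SE 0.030, adjusted p = 0.0108) higher in the IP RPFs. *Cct5* (-0.030, adjusted p = 0.456) and *Cct8* (0.022, adjusted p = 0.595) did not pass. In Rps27l-FLAG 4 of 7 passed, all higher: *Cct4* (0.17, SE 0.026, adjusted p = 1.36e-07), *Cct7* (0.14, adjusted p = 1.34e-05), *Cct2* (0.14, adjusted p = 1.96e-05) and *Cct8* (0.13, adjusted p = 8.55e-05). *Tcp1* (-0.028), *Cct3* (-0.054) and *Cct5* (0.054) did not pass, with adjusted p from 0.113 to 0.467. This fit shares its estimate of spread across transcripts, and the standard errors of the 7 subunits were nearly equal (0.030 to 0.0303, and 0.0261 to 0.0268). The SD of the log2 ratio over 3 clones ran from 0.021 (*Cct2*) to 0.054 (*Cct5*) in Rps27-FLAG. In Rps27l-FLAG it ran from 0.018 (*Tcp1*) to 0.054 (*Cct2*). The adjusted p-values thus do not measure each subunit's own spread over clones.

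These calls are 71.4% and 57.1% of the measured subunits, above the background of all transcripts and below that of abundant ones. With the same block 41.2% of all transcripts were called in Rps27-FLAG (18.3% higher, 22.9% lower) and 31.0% in Rps27l-FLAG (12% higher, 19.0% lower), and of the 347 other transcripts above 500 normalized CPM 78.7% were called in each line. In Rps27-FLAG 48.4% of these abundant transcripts had more and 30.3% less IP RPFs, and in Rps27l-FLAG 55.0% and 23.6%. Without Rps27-FLAG replicate 3 the blocked fit called 3 of 7 subunits, since *Cct2* and *Cct7* no longer passed (adjusted p = 0.215 and 0.120). Without Rps27-FLAG replicate 2 it called 4 (*Cct2*, adjusted p = 0.0760), and without Rps27l-FLAG replicate 2 it called 5 in that line, with *Cct3* lower (-0.069, adjusted p = 0.0183). Without Rps27-FLAG replicate 1 the fit with no block called 2 of 7, *Tcp1* and *Cct3*. The IP libraries of all 3 clones lay above all 3 total libraries for 1 of 7 subunits in Rps27-FLAG (*Cct7*, background 11.3%) and for 5 of 7 in Rps27l-FLAG (*Cct2*, *Cct4*, *Cct5*, *Cct7* and *Cct8*, background 9.11%). They lay below for 0 of 7 in both lines (background 17.0% and 14.2%).

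**Figure D4:**
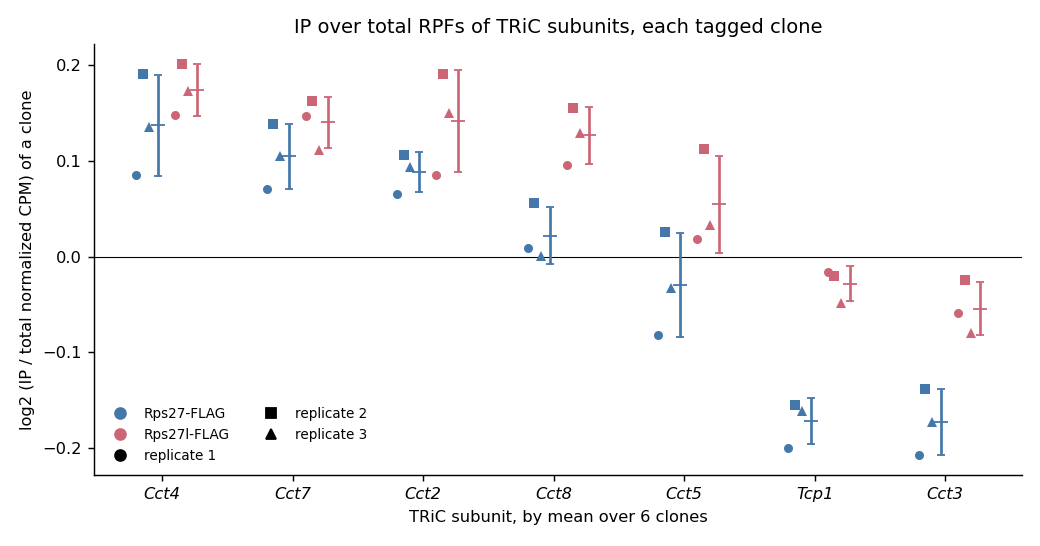
Log2 ratio of IP over total normalized CPM (y axis) for each measured subunit (x axis, ordered by the mean of 6 clones) in each tagged clone, with colors for lines and shapes for replicates, and bars for the mean ± SD of 3 clones. *Cct4*, *Cct7* and *Cct2* lie above 0 in 6 of 6 clones, and *Tcp1* and *Cct3* lie below 0 in 6 of 6 clones, though their mean in Rps27l-FLAG was above 0 once a trend with CDS length had been removed.

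In each of the 6 tagged clones *Cct4* had the highest ratio and *Cct3* or *Tcp1* the lowest. For *Tcp1* the log2 IP over total ratio was -0.20, -0.16 and -0.16 in the Rps27-FLAG clones 1 to 3, and -0.016, -0.020 and -0.049 in the Rps27l-FLAG clones. For *Cct3* it was -0.21, -0.14 and -0.17, and -0.059, -0.025 and -0.080. These subunits were below 0 in all 6 clones, and the clones of the lines did not overlap for either. For *Cct4* the ratio was 0.085, 0.19 and 0.14, and 0.15, 0.20 and 0.17. For *Cct7* it was 0.071, 0.14 and 0.10, and 0.15, 0.16 and 0.11. For *Cct2* it was 0.065, 0.11 and 0.094, and 0.085, 0.19 and 0.15. These were above 0 in all 6 clones, and the lines overlapped for each. *Cct8* had 0.0086, 0.056 and 0.00047, and 0.096, 0.16 and 0.13. *Cct5* had -0.082, 0.026 and -0.033, and 0.018, 0.11 and 0.033. *Cct8* was thus higher in every Rps27l-FLAG clone than in any Rps27-FLAG clone, and *Cct5* was not. The share of all transcripts whose clones did not overlap between lines was not counted, so that these separations have no background here.

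A ratio against the total libraries moves with the scaling of each library, and the sign of some ratios moved with it. When a trend with CDS length was removed from each library, *Tcp1* and *Cct3* in Rps27l-FLAG went from -0.028 and -0.055 to 0.035 and 0.0060, while in Rps27-FLAG they stayed lower and were called with the block (-0.11 and -0.11, adjusted p = 0.00376 and 0.00284). *Tcp1* in Rps27l-FLAG was also above 0 in DESeq2 (0.0052). Differences between subunits within a clone do not depend on the scaling. *Cct4* had a higher IP over total ratio than *Cct3* in 6 of 6 clones, by 0.27 on the log2 scale (SD 0.048, exact two-sided sign-flip permutation p = 0.0312, the smallest that 6 clones allow, adjusted p = 0.0386 over 21 pairs). *Cct4* was also above *Tcp1* in 6 of 6 clones, by 0.26 (SD 0.065), with the same exact permutation p. Of the 21 pairs, 17 had the same sign in all 6 clones, and these 17 had an adjusted p of 0.0386 in the exact permutation test. The pairs that did not were *Cct7* and *Cct2*, *Cct7* and *Cct8*, *Cct2* and *Cct8*, and *Tcp1* and *Cct3*. This comparison of pairs was chosen after the ratios had been seen. Pairs of other transcripts were not counted in this way, so that the 17 pairs have no background here. Whether TRiC subunits differ more than other transcripts was not tested. Without the block, the log2 fold changes of the subunits spanned -0.172 to 0.139 for Rps27-FLAG. All 10085 transcripts had an SD of 0.253 there, which includes counting error. For Rps27l-FLAG the subunits spanned -0.055 to 0.174, beside an SD of 0.216.

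The density order changed accordingly between fractions. In the 6 IP libraries it was *Cct4* (907 ± 49.0, SD, n = 6), *Cct8* (820 ± 32.9), *Cct7* (792 ± 15.3), *Cct5* (785 ± 37.8), *Cct2* (761 ± 33.1), *Cct3* (703 ± 38.1) and *Tcp1* (702 ± 37.2). The highest density was 1.29 times the lowest, and 1.29 to 1.35 times in single IP libraries, above the 1.12 to 1.20 in every total library. Only *Cct4* and *Cct8* kept their places. The coefficient of variation between subunits rose from 4.69% in total to 9.09% in IP RPFs, while it was 21.2% and 22.1% for prefoldin, 13.7% and 11.4% for MCM and 27.4% and 26.6% for the 20S core.

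The IP over total ratios of the tagged lines were then compared directly. The ratio of each of the 7 subunits was higher in Rps27l-FLAG, by log2 differences of 0.14 (*Tcp1*), 0.12 (*Cct3*), 0.10 (*Cct8*), 0.084 (*Cct5*), 0.053 (*Cct2*), 0.037 (*Cct4*) and 0.037 (*Cct7*) and standard errors of 0.038 to 0.039. None passed the thresholds of the study, an adjusted p under 0.05 together with an absolute log2 difference above 0.25, which 0.575% of all transcripts did. *Tcp1* had an adjusted p of 0.0204 in edgeR's quasi-likelihood test and fell under the limit on size, and *Cct3* had an adjusted p of 0.0908. At an unadjusted p under 0.05 there were 4 of 7 (*Tcp1*, *Cct3*, *Cct5* and *Cct8*), against 1217 of 10085 transcripts. Voom with limma and DESeq2 called 0 of 7, and 54 and 11 of all transcripts. The median of the 7 was 0.084, against -0.0030 over all transcripts and 0.062 over the 347 other transcripts above 500 normalized CPM.

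Genes that work with TRiC were read from lists of cofactors and substrates. The counts with the clone as a replicate block are to be read against all transcripts (18.3% higher and 22.9% lower in Rps27-FLAG, 12% and 19.0% in Rps27l-FLAG) and against the abundant ones (48.4% and 30.3%, 55.0% and 23.6%), and without the block 0 genes of the cofactor, substrate and chaperonin lists passed in either line. In the total RPFs 0 genes of these lists passed between lines by edgeR's quasi-likelihood test, by which 0 of all transcripts passed. Of the 6 prefoldin subunits, 5 were higher in the IP RPFs of each line with the block, *Vbp1* (0.19 and 0.26, adjusted p = 3.79e-07 and 4.80e-08) and *Pfdn6* (0.17 and 0.17) in both. Of the 3 phosducin-like cofactors tested, of 4 listed, 2 were higher in Rps27-FLAG with the block (*Pdcl3* 0.33, *Txndc9* 0.19) and 1 in Rps27l-FLAG (*Txndc9* 0.12). Of 12 actins and tubulins, the main substrates, 2 passed as higher and 6 as lower with the block in Rps27-FLAG, against 3 and 1 in Rps27l-FLAG. *Actg1*, cytoplasmic gamma actin, was higher in both lines (0.17 and 0.30) and *Tubb3*, a beta tubulin, lower in both (-0.12 and -0.18). Counts of some genes in this list rest on few unique positions, such as *Tuba1c* (6.59% of 28-base stretches) and *Tuba1b* (9.24%), which were lower in Rps27-FLAG (-0.38 and -0.41).

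Of 6 other TRiC substrates, most of them proteins with WD40 repeats or of the cell cycle, 6 passed as lower in the IP RPFs of Rps27-FLAG and 5 in those of Rps27l-FLAG with the block, where *Plk1*, a mitotic kinase, did not pass (-0.071, adjusted p = 0.0664). *Hdac3*, a histone deacetylase, had -0.31 and -0.28, *Gnb1*, a G protein beta subunit, -0.22 and -0.14, and *Cdc20*, an activator of the anaphase-promoting complex, -0.13 and -0.086. Of 5 tubulin folding cofactors, again with the block, 3 passed as higher and 1 as lower in Rps27-FLAG, against 2 and 1 in Rps27l-FLAG, with *Tbcd* lower in both (-0.23 and -0.15) and *Tbca* higher in both (0.15 and 0.21). Among 5 tested chaperonin-like and mitochondrial genes, of 6 listed, *Hspd1*, the mitochondrial chaperonin, was higher in both lines with the block (0.17 and 0.23), and *Cct6b* was higher in Rps27-FLAG (0.46, SE 0.13, adjusted p = 0.00128, and 0.112 without the block) from 69 to 128 counts. Whether footprints of *Cct6a* added to these counts of *Cct6b* was not tested. Between the tagged lines 0 genes of these lists passed both thresholds.

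Across libraries most subunits moved together in the total RPFs, *Cct7* least, as a description over libraries that share preparation pools and scaling. Some transcripts outside TRiC moved with them. Over the 9 total libraries the Pearson correlation of a subunit's log2 level with the mean of the others was 0.935 for *Tcp1*, 0.920 for *Cct2*, 0.913 for *Cct3*, 0.904 for *Cct8*, 0.881 for *Cct5*, 0.768 for *Cct4* and 0.455 for *Cct7*. Over all 15 libraries it fell to 0.295 for *Tcp1* and 0.302 for *Cct3*, and was 0.872 for *Cct8*. The transcripts outside TRiC most like the mean profile of the 7 subunits over 15 libraries were *Hnrnpu* (r = 0.921), *Nedd4*, *Ptges3* (both 0.919), *Psma7* (0.917), *G3bp1*, *Rpl4* (both 0.904), *Actb* (0.900) and *Hsp90aa1* (0.899). Over the 9 total libraries they were *Ptbp1* (0.983), *Rps15a* (0.952), *Tex9* (0.949), *Rpl34*, *Wdr43* (both 0.945), *Eif4ebp2*, *Cep89* (both 0.944) and *Psma7* (0.943). *Psma7*, a subunit of the 20S proteasome core, was in both groups.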

How the data were processed

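Footprints of 15 mESC libraries were analysed (total RPFs of 9 clones, IP RPFs of 6). Per the paper's methods and the submitters' processing notes, the authors trimmed reads with cutadapt 2.4, removed duplicates by molecular identifiers with UMI-tools 1.0.1, discarded rRNA, tRNA and snRNA, aligned with Bowtie2 2.3.4.3 to GRCm38 transcripts and kept unique alignments. The deposited values are raw counts of A sites per CDS without the first 15 and last 5 codons, for 21727 transcripts; all columns were used. Keeping unique alignments lowers counts of near-identical genes, and pulldown, depth and scaling bear on IP over total ratios.

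Transcripts were matched to GENCODE M21 (21723 found), while the authors used release VM20. Mitochondrially encoded transcripts (13) were left out, and 10085 with CPM over 2 in at least 14 of 15 libraries were kept. TMM factors were computed for IP and total libraries separately. Counts were tested by edgeR 4.0.16 (quasi-likelihood, R 4.3.3), with Benjamini-Hochberg adjustment over all 10085 and a threshold of 0.05, in the designs of the methods, with cell line for total RPFs, fraction within a line for IP against total, and clone and fraction within line for the difference between lines (absolute log2 limit 0.25). Densities used CDS length less 60 bases and an exact sign-flip permutation test over clones (scipy 1.17.1), adjusted over 21 pairs, since *Cct6a* had no counted CDS. Library totals were 3972152 to 8064166 counts.

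Deviations from the condition means were shared by both libraries of a clone (r = 0.483 to 0.798 in 6 clones), so that they were treated as paired, and values with the clone as a replicate block are given. Total libraries of different clones in the same preparation pool had r = -0.167 to 0.719. Both libraries of a clone share a pool, so that clone and pool cannot be told apart in the pairing. The replicate number, which marks a library preparation pool, was also fitted as a block for total RPFs. Alternatives were voom with limma 3.58.1, DESeq2 1.42.0, other scalings, filters and blocks, removal of a trend with CDS length (loess, span 0.5), and each clone left out. All 8 subunits are named in every comparison, of each other list at most 5 genes, and the 8 transcripts of most similar profile. The members, lists and tests were chosen with earlier results of these data known. Scripts were tested on simulated data. The sequence of the proteins and RNA levels were not used here.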

Additional observations from a re-analysis of the deposited data

Results flagged for a closer look

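The IP over total ratio of *Tcp1*, the alpha subunit, differed between the tagged lines. Its log2 difference, Rps27l-FLAG minus Rps27-FLAG, was 0.145 (SE 0.0379), with an adjusted p of 0.0204 in edgeR's quasi-likelihood test with clone and fraction within each line. The mean log2 ratio was -0.17 in Rps27-FLAG and -0.028 in Rps27l-FLAG. It was higher in each of the 3 Rps27l-FLAG clones than in each of the 3 Rps27-FLAG clones. The share of all transcripts with clones separated in this way was not counted. Of all transcripts, 84.2% had a lower log2 difference than *Tcp1*. The difference lies under the limit of 0.25 on the absolute log2 difference. The 347 other transcripts above 500 normalized CPM had a median difference of 0.062, and the part of abundance in the value of *Tcp1* was not tested.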

How the results depend on the processing

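No TRiC subunit was called between lines in the total RPFs under any alternative, and the replicate number as a replicate block left these counts at 0, while the calls over all transcripts rose from 0 to 1, 144 and 137. For IP against total RPFs the clone as a replicate block gave 5 of 7 in Rps27-FLAG and 4 of 7 in Rps27l-FLAG, and 6 and 5 together with removal of the CDS length trend. With each clone left out, Rps27-FLAG gave 0 to 2 without the block and 3 to 5 with it, and Rps27l-FLAG 0 and 4 to 5. In Rps27l-FLAG, DESeq2, its size factors in edgeR and TMM over all 15 libraries gave 1 each. Without the size limit 1 subunit passed between the IP over total ratios, as did 151 of 10085 transcripts, and the count stayed at 0 under the other alternatives. The ratio of highest to lowest density was 1.29 in the 6 IP libraries, and 1.15 to 1.16 with single clones left out. The pairs with adjusted p under 0.05 were 0 in the 3 WT libraries, which cannot reach it, and 15 to 16 with single clones left out. The pairs with 1 sign of IP over total difference in every clone were 17 to 18. The leave-out fits of the blocked comparisons and of these pairs were added after seeing the data.

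Of 616 values of single subunits under an alternative, 561 kept direction and side of the threshold, 27 newly passed, 3 no longer passed and 25 changed sign, each from a value near 0, and the cause was not tested. Leaving out clones gave, in Rps27-FLAG against WT, -0.021 to 0.056 for *Cct2*, -0.037 to 0.062 for *Cct4* and -0.016 to 0.019 for *Cct7*. In Rps27l-FLAG against WT it gave -0.021 to 0.015 for *Tcp1*, -0.089 to 0.0053 for *Cct3*, -0.033 to 0.013 for *Cct4* and -0.025 to 0.0042 for *Cct7*. Between tagged lines it gave -0.068 to 0.030 for *Cct4* and -0.027 to 0.0073 for *Cct7*. Without the filter *Cct7* was -0.0010 in Rps27-FLAG against WT. In IP against total RPFs, removing the length trend gave *Cct5* 0.033 in Rps27-FLAG (0.031 with the block), and in Rps27l-FLAG *Tcp1* 0.035 (0.036) and *Cct3* 0.0060 (0.0069). *Tcp1* there was 0.0052 in DESeq2 and 0.0057 with its size factors. The counting half-width of 2.0% to 2.9% per library is as large as several differences between neighbouring densities and as the smaller IP over total differences, such as the 1.52% of *Cct8* in Rps27-FLAG.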
